A study of Danio rerio with 20 samples.

Results

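The genes described here are the heat shock chaperones and heme oxygenase of the zebrafish embryo, followed in whole-embryo RNA sequencing from 8 to 16 hours post fertilization (hpf). They were chosen by name: hsp90aa1, hsp90ab1, hsp70.3, hsp70l, hspa8, hspa5, hspb1, hspd1 and hmox1. These 9 names matched 11 gene IDs of the 32057 in the table, since hsp90aa1 and hspa8 each stand for a pair of IDs, and all 11 were abundant enough to be among the 14774 genes tested. The series asked how p53 targets respond when Mdm2, the ubiquitin ligase that restrains p53, is lost from part of the embryos. MPNP pools were un-genotyped offspring of mdm2+/-; puma-/-; noxa-/-; p21-/- parents, so each pool mixed mdm2-/-, mdm2+/- and mdm2+/+ embryos, and about 25% lacking mdm2 were expected. PNP pools came from puma-/-; noxa-/-; p21-/- parents, with no mdm2 mutation listed. All embryos of both pools were therefore mutant for Puma and Noxa, which promote p53-driven cell death, and for p21, which arrests the cell cycle. A library held about 50 embryos from a fertilization window of 15 min, and there were 2 libraries per pool at 8, 10, 12, 14 and 16 hpf, 20 in all.

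Chaperones bind unfolded or unstable proteins and help them to fold. Members of the HSP70 family hold exposed stretches of a protein in a cycle driven by ATP, and HSP90 acts later, on nearly folded clients such as kinases, hormone receptors and muscle myosin. Some genes of these families, such as hspa8 and hsp90ab1, are made at all times. Others, such as hsp70.3 and hsp70l, are raised by heat shock factor 1 (Hsf1) under heat, oxidants or protein damage. Hspa5 (BiP) does the same work inside the endoplasmic reticulum (ER), Hspd1 (HSP60) in mitochondria, and Hspb1 is a small heat shock protein that holds clients without ATP. Hmox1 cleaves heme into iron, carbon monoxide and biliverdin, and its gene is a classical target of Nrf2, the regulator of the oxidative stress response.

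The values were transcript shares (TPM), which scale each gene by its length and have the same total in every library. They keep no read depth, so the precision behind a value is known only from the spread between libraries. The mdm2 transcript, the check on the labels, was at 316.8 and 324.8 TPM in MPNP libraries and at 112.9 and 114.2 TPM in PNP libraries at 16 hpf, but its log2 difference at 8 hpf was 0.16 ± 0.24 (SE). Mutant and normal mdm2 RNA are counted alike here, so these values do not measure the share of mutants in a pool. From 13080 to 15326 genes reached 1 TPM in a library. Markers of muscle, blood, notochord and tailbud, epidermis, hatching gland, lens and yolk syncytial layer were all detected at 16 hpf, as a whole embryo would give. At 8 hpf the summed lens markers were only at 0.25 to 3.62 TPM in MPNP and 0.71 to 1.74 TPM in PNP. The summed blood markers were then at 1.18 to 3.63 TPM in MPNP and 1.84 to 2.62 TPM in PNP. Same-numbered libraries of MPNP and PNP shared deviations across genes, so a fit that pairs them within each stage, called the replicate block below, is given beside the main results. In pooled whole embryos, a larger share of expressing embryos or cells cannot be told apart from more RNA per cell.

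hsp70.3, a stress-inducible cytosolic HSP70, had the largest log2(TPM + 1) difference of the 11 IDs between the pools at 8 hpf. It was at 67.1 and 110.2 TPM in MPNP libraries and at 7.1 and 6.38 TPM in PNP libraries. Both MPNP libraries thus lay far above both PNP libraries, and the PNP values were the lowest of all 20. The log2(TPM + 1) difference was 3.49 ± 0.67 (SE), 11.3-fold on that scale, with a limma adjusted p of 0.051, just above the threshold of 0.05, and 0.0061 with the replicate block. Leaving out any of the 4 libraries of the stage gave differences from 3.14 to 3.85, a range that describes its size and not whether it passed. As a plain ratio of mean TPM, the difference of hsp70.3 was 13.2-fold and that of the rarer hsp70l 28.9-fold.

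No later hsp70.3 difference passed. At 10 hpf hsp70.3 was at 34.9 and 29.5 TPM in MPNP and at 32.1 and 86.8 TPM in PNP, the second PNP library being the highest of the stage. At 12 hpf it was at 78.2 and 21.7 TPM in MPNP and at 29.8 and 13.1 TPM in PNP, this time with the first MPNP library standing out. By 14 hpf all 4 libraries were low, at 21.1 and 13.2 TPM in MPNP and 9.83 and 11.4 TPM in PNP. At 16 hpf MPNP had 21.6 and 11.4 TPM and PNP had 39.3 and 10.5 TPM, and the pools overlapped as at 10 and 12 hpf but not at 14 hpf. The log2 differences were -0.70, 1.03, 0.61 and -0.37 at 10, 12, 14 and 16 hpf (SE 0.67 each), none past the limma threshold with or without the block (adjusted p from 0.94 to 1 without it and from 0.25 to 0.73 with it). Without the library that stood out, the difference was -0.0012 at 10 hpf without PNP library 2, 0.13 at 12 hpf without MPNP library 1 and 0.54 at 16 hpf without PNP library 1. The difference at 8 hpf exceeded the mean of the later ones by 3.35 ± 0.75, with a limma adjusted p of 0.23 without the block and 0.029 with it.

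**Figure D1:**
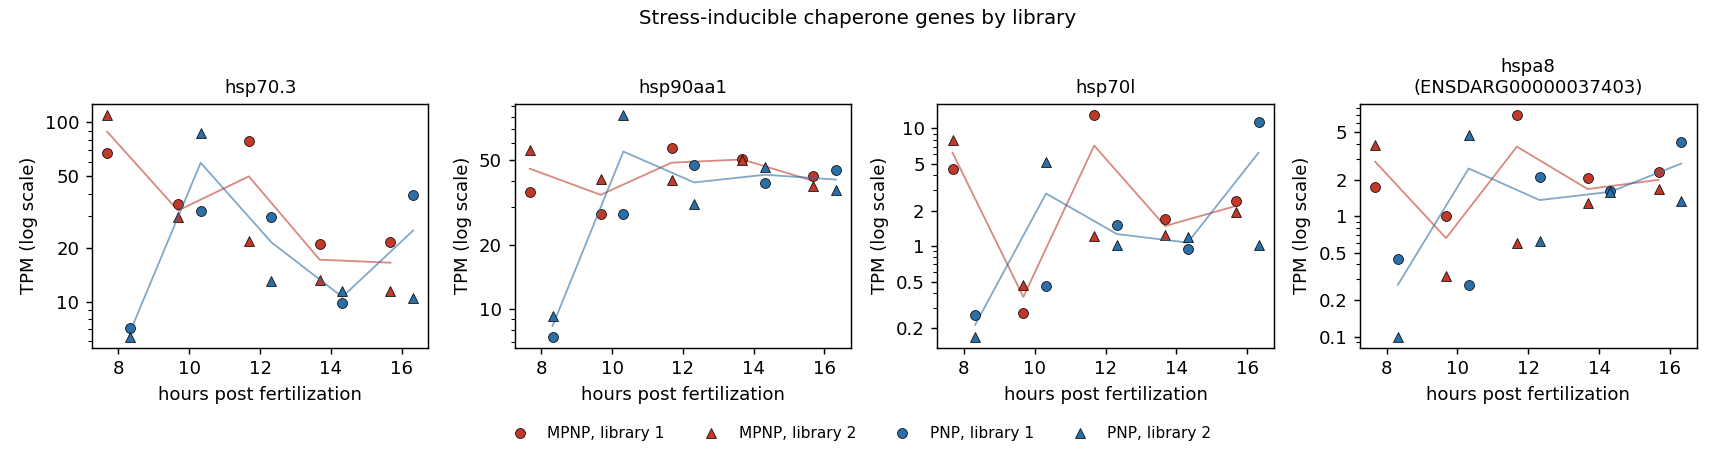
TPM (log scale) of hsp70.3, hsp90aa1 (ENSDARG00000024746), hsp70l and hspa8 (ENSDARG00000037403) in each library against hours post fertilization. Circles and triangles are libraries 1 and 2, MPNP in red left of PNP in blue, and lines join the group means. For all 4 genes both MPNP libraries lie above both PNP libraries at 8 hpf, and at later stages single libraries of either pool stand out.

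The gene listed only as hsp90aa1 (ENSDARG00000024746), of the inducible HSP90 class, was the 1 member that passed the test at 8 hpf, as 0.183% of all genes did in that direction. It was at 35.6 and 55.7 TPM in MPNP libraries and at 7.41 and 9.23 TPM in PNP libraries, with no overlap. The log2 difference was 2.30 ± 0.39, 4.91-fold on the TPM + 1 scale (limma adjusted p = 0.03, and 0.0022 with the block). At the later stages it was at 28.1 and 40.7 TPM in MPNP against 28.1 and 81.9 TPM in PNP at 10 hpf, and all 12 libraries from 12 hpf on lay between 31.2 and 57.0 TPM. The MPNP libraries of 8 hpf lay within that later range, and the PNP libraries of 8 hpf far below it. The differences from 10 to 16 hpf were -0.49, 0.31, 0.24 and -0.01 (SE 0.39 each; limma adjusted p from 0.88 to 1, and from 0.18 to 0.99 with the block). Relative to their mean, the 8 hpf difference was larger by 2.29 ± 0.44 (limma adjusted p = 0.16, and 0.016 with the block). Within PNP, hsp90aa1 rose by 2.16 ± 0.39 between 8 and 16 hpf (limma adjusted p = 0.00028). The call at 8 hpf was lost without MPNP library 2 of that stage (limma adjusted p = 0.27), PNP library 1 (0.2) or PNP library 2 (0.13). It held in 13 of the 20 fits that left out 1 library, and was also lost, at 0.052, without either MPNP library of 14 hpf or either PNP library of 16 hpf.

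A pair of much rarer HSP70 transcripts had the same order of the pools at 8 hpf. hsp70l, the inducible HSP70 gene whose promoter is widely used for heat-controlled transgenes in zebrafish, was at 4.48 and 7.93 TPM in MPNP libraries and at 0.26 and 0.17 TPM in PNP libraries. Its difference of 2.53 ± 0.86 did not pass (limma adjusted p = 0.32, and 0.072 with the block). The less abundant of the IDs named hspa8 (ENSDARG00000037403), placed with the inducible genes here because its values ran with theirs and not from its name, was at 1.77 and 3.92 TPM in MPNP and at 0.44 and 0.1 TPM in PNP at 8 hpf, a difference of 1.55 ± 0.74 that did not pass either (limma adjusted p = 0.59, and 0.17 with the block). From 10 hpf on, hsp70l ranged from 0.27 to 13.0 TPM in MPNP and from 0.46 to 11.4 TPM in PNP. Its highest values were in MPNP library 1 at 12 hpf and PNP library 1 at 16 hpf, where the other library of the group had 1.22 and 1.03 TPM. These HSP70 genes are close copies, so reads may be shared between them. hsp70.3 made up from 66.2% to 97.7% of the summed TPM of hsp70.3, hsp70l, hsp70.1 and hspa1b in each library, and the sum behaved like hsp70.3 at 8 hpf (difference 3.51, limma adjusted p = 0.075).

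The genes described so far moved together from library to library, within pools as well as between them. The rarer hspa8 was placed among them because its values ran with theirs, so its likeness below follows from that choice. After subtracting each stage's mean log2(TPM + 1), hsp70.3 was most alike to hspa2 (Pearson's r = 0.96), hsp70l (0.92), hsp90aa1 (0.91), the rarer hspa8 (0.87) and zer1 (0.85), over 20 libraries. Of these, hspa2 encodes another HSP70 and zer1 a substrate receptor of a ubiquitin ligase. The genes most alike to hsp70l were hsp70.1 (0.95), the rarer hspa8 (0.93), hspa2 (0.92), hsp70.3 (0.92) and dnajb6a (0.83), a J-domain partner of HSP70. These values describe libraries that share stage, pool and replicate number, and some of the genes may share reads. The list for hsp90aa1, added after its values were seen, was led by hsp70.3 (0.91), tmem160 (0.89) and dlgap4 (0.86). All 5 libraries with the highest hsp70.3 were also the 5 highest for hsp70l, hsp70.1 and hspa2, and 4 of the 5 for the rarer hspa8, but only 3 for hsp90aa1. They were both MPNP libraries of 8 hpf, PNP library 2 of 10 hpf, MPNP library 1 of 12 hpf and PNP library 1 of 16 hpf, thus 3 MPNP and 2 PNP libraries. In hspa2 the MPNP libraries among them had 24.4, 29.5 and 32.2 TPM and the PNP libraries 29.6 and 22.3 TPM, while the PNP libraries of 8 hpf had 2.05 and 1.74 TPM. High levels of these genes therefore also occurred in PNP embryos.

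**Figure D2:**
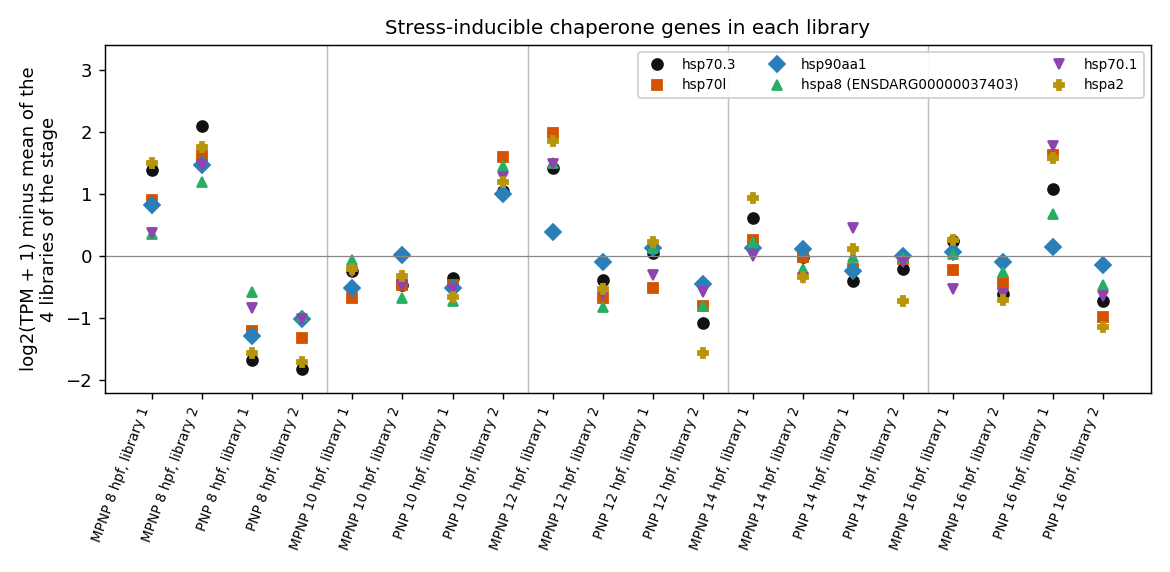
Stage-centred log2(TPM + 1) of hsp70.3, hsp70l, hsp90aa1, the rarer hspa8, hsp70.1 and hspa2 in each of the 20 libraries; the zero line is the mean of the 4 libraries of a stage, and grey lines part the stages. The genes are high together in both MPNP libraries at 8 hpf and in single libraries at 10 hpf (PNP) and 12 hpf (MPNP). At 16 hpf all but hsp90aa1 are clearly high in PNP library 1. There hsp90aa1 had 44.8 TPM, against 42.3 and 37.7 TPM in MPNP and 36.4 TPM in PNP library 2. The rarer hspa8 is included because its values ran with those of the others.

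Replicates of these genes also spread more than those of most genes. The larger over the smaller library of a group, on TPM + 1, had a median of 1.73 over the 10 groups for hsp70.3, above that of 97.0% of all genes tested, and 1.65 for the rarer hspa8, above that of 96.0%. For hsp90aa1 the median was 1.31, above that of 79.5% of genes. For hsp70l the median was 1.22, above that of only 62.9%, but its highest ratio was 6.32, above that of 99.1% of genes. A wide spread was not confined to these genes. The median of hspb1 was 1.33, above that of 81.5% of genes and above those of hsp90aa1 and hsp70l. That of hmox1 was above that of 77.4% of genes, and so also above that of hsp70l. The medians of hspa5, hsp90aa1.1 and hspd1 were above those of 50.3%, 46.8% and 13.6% of genes. The abundant hspa8 (ENSDARG00000068992) and hsp90ab1 had medians of only 1.06 and 1.07, and those of all genes had a median of 1.17.

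hmox1 (ENSDARG00000027529) behaved differently: it was higher in MPNP in the mean of the stages, with no overlap at any stage. In MPNP libraries it was at 5.75 and 11.8 TPM at 8 hpf, 9.01 and 12.7 at 10 hpf, 18.2 and 24.1 at 12 hpf, 29.0 and 37.8 at 14 hpf and 52.6 and 35.9 at 16 hpf. In PNP libraries it was at 4.44 and 5.09 TPM at 8 hpf, 4.83 and 4.61 at 10 hpf, 7.85 and 11.9 at 12 hpf, 12.4 and 12.4 at 14 hpf and 19.9 and 19.8 at 16 hpf. Such a lack of overlap at all 5 stages held for 0.826% of all genes in this direction, and MPNP was higher in 10 of 10 same-numbered pairs, as in 2.41% of all genes. The log2 differences were 0.69, 1.03, 1.04, 1.35 and 1.09 from 8 to 16 hpf (SE 0.29 each). None of them passed alone (limma adjusted p = 0.46, 0.22, 0.23, 0.06 and 0.12), but with the block the last 4 did (0.034, 0.048, 0.012 and 0.02, against 0.095 at 8 hpf). The mean of the 5 differences was 1.04 ± 0.13, 2.06-fold on the TPM + 1 scale (limma adjusted p = 0.00029). It passed in each of the 20 fits that left out 1 library, with adjusted p from 6.9e-05 to 0.0011. At 8 hpf the difference was 0.23 without MPNP library 2.

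The hmox1 difference was not largest at 8 hpf. Its value at 8 hpf minus the mean of the later stages was -0.44 ± 0.32, which did not pass (limma adjusted p = 1, and 0.39 with the block). Within PNP, hmox1 rose by 1.86 ± 0.29 between 8 and 16 hpf (limma adjusted p = 7.6e-05). Stage-centred hmox1 correlated with hsp70.3 at r = 0.25 and with hspa5 at 0.74 over the 20 libraries. Stage centring keeps the difference between the pools, which therefore enters these r values and those that follow. Both hmox1 and hspa5 were higher in MPNP in 10 of 10 same-numbered pairs. Among the 5 genes most alike to hmox1 were foxo3b, a forkhead transcription factor, fos, an immediate early gene, and ifit8, of an interferon-induced family, each with r = 0.95. The other 2 have clone-derived names. In the RefSeq annotation of another assembly (GRCz12tu), hmox1a lies 8 annotated genes from hsp70.1, which in turn has 1 gene between it and hsp70.3.

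hspa5, the ER chaperone BiP, was slightly higher in MPNP in 10 of 10 same-numbered pairs, as were 2.41% of all genes. In MPNP it was at 168.9 and 192.5 TPM at 8 hpf, 123.9 and 169.4 at 10 hpf, 179.2 and 181.5 at 12 hpf, 215.8 and 270.7 at 14 hpf and 270.4 and 311.9 at 16 hpf. In PNP it was at 149.2 and 153.6 TPM at 8 hpf, 115.8 and 144.9 at 10 hpf, 137.2 and 156.7 at 12 hpf, 175.2 and 209.4 at 14 hpf and 207.3 and 276.2 at 16 hpf. The pools did not overlap at 8, 12 and 14 hpf and overlapped at 10 and 16 hpf. Such a lack of overlap, with MPNP higher, held for 13.6%, 9.97% and 13.5% of all genes at 8, 12 and 14 hpf. The mean difference was 0.26 ± 0.08, 1.2-fold on the TPM + 1 scale, which passed with the block but not without it (limma adjusted p = 0.00073 and 0.098). It passed without the block when libraries were rescaled by median ratios (0.0063) or quantile normalized (0.017). The 8 hpf difference minus the later mean was -0.02 ± 0.21 (limma adjusted p = 1). Within PNP, hspa5 rose by 0.66 ± 0.19 between 8 and 16 hpf (limma adjusted p = 0.0073), a call lost without PNP library 2 of 16 hpf (0.092).

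Of 34 tested genes of the ER unfolded protein response, 1 was called in the mean of the stages without the block and 11 with it, all higher in MPNP, where 2.62% and 7.0% of all genes were called higher. At 8 hpf 0 were called, or 3 with the block, all higher, where the block called 1.83% of all genes higher. Their median log2 difference in the mean was 0.09, against -0.03 over all genes tested, and 26 of the 34 were positive. The shift was uneven, with medians of 0.04, -0.02, 0.07, 0.12 and 0.25 from 8 to 16 hpf. Over all genes these medians were -0.03, -0.08, -0.02, 0.01 and -0.01. Positive differences numbered 23, 14, 24, 29 and 29 of the 34. The gene that passed in the mean without the block was hsp90b1 (GRP94), the HSP90 of the ER, with a difference of 0.60 ± 0.08 (limma adjusted p = 0.00062). At 8 hpf hsp90b1 was at 46.1 and 60.6 TPM in MPNP and at 31.4 and 35.2 TPM in PNP, and at 16 hpf at 43.7 and 50.3 TPM in MPNP and at 31.0 and 36.3 TPM in PNP. The pools of hsp90b1 were thus apart at both ends of the series. With the block alone, the disulfide isomerase genes pdia6 (0.19 ± 0.05; limma adjusted p = 0.073, and 0.0021 with it) and pdia4 (0.29 ± 0.11; 0.16 and 0.013) and sdf2l1, a partner of BiP (0.19 ± 0.06; 0.085 and 0.006), passed as well.

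**Figure D3:**
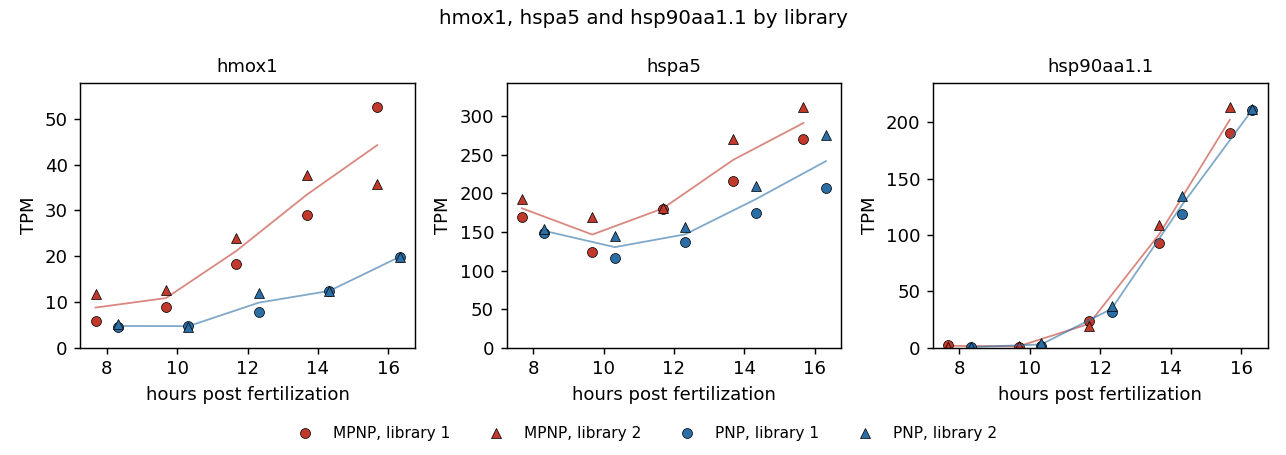
TPM of hmox1, hspa5 and hsp90aa1.1 in each library against hours post fertilization, on axes that start at 0, with MPNP in red left of PNP in blue, circles for library 1, triangles for library 2, and lines through group means. The hmox1 libraries of MPNP lie above those of PNP at each stage, hspa5 shows a small shift the same way, and hsp90aa1.1 climbs in both pools from 0.59 to 2.71 TPM at 8 hpf to values between 190.7 and 213.7 TPM at 16 hpf.

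hsp90aa1.1 (ENSDARG00000010478) encodes the HSP90 that folds myosin in developing muscle, together with Unc45b and Smyd1. It was the member that rose most with development, by 7.04 ± 0.33 on the log2 scale between 8 and 16 hpf in PNP (limma adjusted p = 1.2e-09). It had 2.71 and 0.79 TPM in MPNP and 0.64 and 0.59 TPM in PNP at 8 hpf, and 190.7 and 213.7 TPM in MPNP and 210.7 and 211.6 TPM in PNP at 16 hpf. In between, MPNP was the lower pool without overlap at 12 hpf, with 23.5 and 19.0 TPM against 32.0 and 36.9 TPM in PNP, and at 14 hpf, with 92.6 and 109.3 TPM against 118.3 and 134.8 TPM in PNP. At 12 and 14 hpf, 18.4% and 12.6% of all genes were lower in MPNP without overlap. The log2 differences of hsp90aa1.1 were 0.67, -0.75, -0.68, -0.33 and -0.06 from 8 to 16 hpf (SE 0.33 each). None passed (limma adjusted p from 0.54 to 1, and from 0.082 to 0.93 with the block), and the value at 8 hpf was 0.15 without MPNP library 1.

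Muscle markers leaned the same way. All 7 tested had a negative mean difference, with a median of -0.25. Of these, 1 was called lower without the block and 3 with it. Of all genes, 5.29% were called in either direction without the block, and 10.4% as lower with it. The summed TPM of the list ran from 36.4 to 51.2 in MPNP and from 43.5 to 51.5 in PNP at 8 hpf, from 72.96 to 78.0 in MPNP and from 94.2 to 108.7 in PNP at 10 hpf, and from 126.0 to 142.1 in MPNP and from 166.9 to 177.2 in PNP at 12 hpf. It ran from 181.2 to 230.4 in MPNP and from 222.4 to 247.8 in PNP at 14 hpf, and from 322.1 to 336.1 in MPNP and from 345.6 to 425.2 in PNP at 16 hpf. The sums were thus lower in MPNP without overlap at 10, 12 and 16 hpf. Among single genes this held for 22.8%, 18.4% and 14.4% of all genes at those stages. Of the 8 measured IDs on the list, 1 was at 0 in both PNP libraries of 8 hpf and none in any other group. The part of this shift in the hsp90aa1.1 values was not tested. The other marker lists also had negative medians in the mean, against -0.03 over all genes. These were -0.33 for hatching gland, -0.22 for blood and -0.13 for yolk syncytial layer. For notochord and tailbud the median was -0.10, for lens -0.09 and for epidermis -0.06. Of these lists, 1 of 4 blood genes (gata1a) and 1 of 4 epidermal genes (cldne) were called lower in the mean, with and without the block. Of the hatching gland, the notochord and tailbud, the yolk syncytial layer and the lens lists 0 genes were called without the block, and 1 (cd63), 1 (col2a1), 2 (apoa2 and apoa1b) and 0 were lower with it. Signs varied by stage. At 16 hpf differences were positive for 3 of 3 hatching gland and 3 of 3 yolk syncytial layer genes. They were positive there for 2 of 3 lens, 2 of 4 notochord and tailbud, 2 of 4 epidermal and 0 of 4 blood genes. smyd1 (ENSDARG00000091253), a myosin co-chaperone on the muscle list, fell by 0.34 ± 0.08 on average in MPNP (limma adjusted p = 0.018). Its partner unc45b had a difference of -0.17 ± 0.05 (limma adjusted p = 0.063, and 0.0075 with the block). The genes most alike to hsp90aa1.1 after stage centring were plcg2, a phospholipase C (r = 0.90), arhgap21 (ENSDARG00000104295; 0.83), hapln1 (0.82) and hoxb7 (0.81), over 20 libraries, besides a clone-named gene. The annotation of GRCz12tu places hsp90aa1.1 directly beside hsp90aa1.2. They are close copies between which reads may be split, and the summed TPM of both hsp90aa1 IDs differed by 2.26 at 8 hpf (limma adjusted p = 0.021).

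None of the differences between the pools passed without the block for hspb1, the abundant hspa8, hsp90ab1 and hspd1. The first 3 of these were by far the most abundant members, and hspd1 was at a level near that of hspa5. Together the 11 IDs took from 0.838% to 1.49% of the TPM of an MPNP library and from 0.824% to 1.43% of that of a PNP library. hspb1 alone ranged from 1689 to 10034 TPM, the seventh highest mean of all genes. The abundant hspa8 (ENSDARG00000068992), the constitutive HSC70, ranged from 2529 to 3362 TPM, hsp90ab1, the constitutive HSP90, from 1186 to 2722 TPM and hspd1 from 149.2 to 208.0 TPM. In MPNP minus PNP the mean differences were -0.09 ± 0.05 for hspa8, -0.06 ± 0.05 for hsp90ab1, 0.07 ± 0.12 for hspb1 and -0.01 ± 0.05 for hspd1, with limma adjusted p from 0.44 to 0.98. With the block, hspa8 passed as lower in MPNP (limma adjusted p = 0.021). At 8 hpf hspa8 had 3010 and 2781 TPM in MPNP against 3341 and 3158 TPM in PNP, and hsp90ab1 had 1229 and 1186 TPM in MPNP against 1384 and 1357 TPM in PNP. In both genes MPNP was thus lower without overlap, as in 19.7% of all genes at that stage. The hspa8 and hsp90ab1 differences of -0.17 ± 0.11 and -0.18 ± 0.12 did not pass (limma adjusted p = 0.83 and 0.82, and 0.084 and 0.065 with the block).

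For hspb1, differences larger than the mean difference between the pools ran with time and with replicate number, and for hsp90ab1 with time. In PNP, hsp90ab1 rose by 0.93 ± 0.12 between 8 and 16 hpf (limma adjusted p = 1.7e-05) and hspb1 fell by 2.11 ± 0.27 (1.4e-05). The median of all genes was 0.17 in that contrast. hspd1 (0.08 ± 0.11) and the abundant hspa8 (-0.02 ± 0.11) did not pass except after quantile normalization, at 0.43 and -0.47. hsp70.3 (1.48 ± 0.67), hsp70l (2.05 ± 0.86) and the rarer hspa8 (1.46 ± 0.74) passed with the block but not without it (limma adjusted p = 0.0065, 0.019 and 0.045 with it, and 0.069, 0.052 and 0.098 without). In all, 5 members were called higher and 1 lower at 16 than at 8 hpf in PNP, or 8 and 1 with the block, where 64.3% of all genes were called, 37.7% higher and 26.6% lower, or 78.4%, 44.1% and 34.2% with the block. hspb1 was lower in library 2 than in library 1 in 10 of 10 groups, as were 6.9% of all genes. Its number 2 minus number 1 difference was -0.39 ± 0.04 (limma adjusted p = 1.2e-06), that of hspa5 was 0.24 ± 0.04 (0.00026), and 54.5% of all genes were called for number. hsp90ab1 also passed (0.09 ± 0.03; 0.043), but in only 6 of the 20 fits that left out 1 library (adjusted p up to 0.11). It was lost without a filter (0.081) or an intensity trend (0.07), and at -0.04 its sign flipped under median ratio rescaling. Before that rescaling, the median of all genes for replicate number was 0.10. What the numbers stand for is not in the labels.

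**Figure D4:**
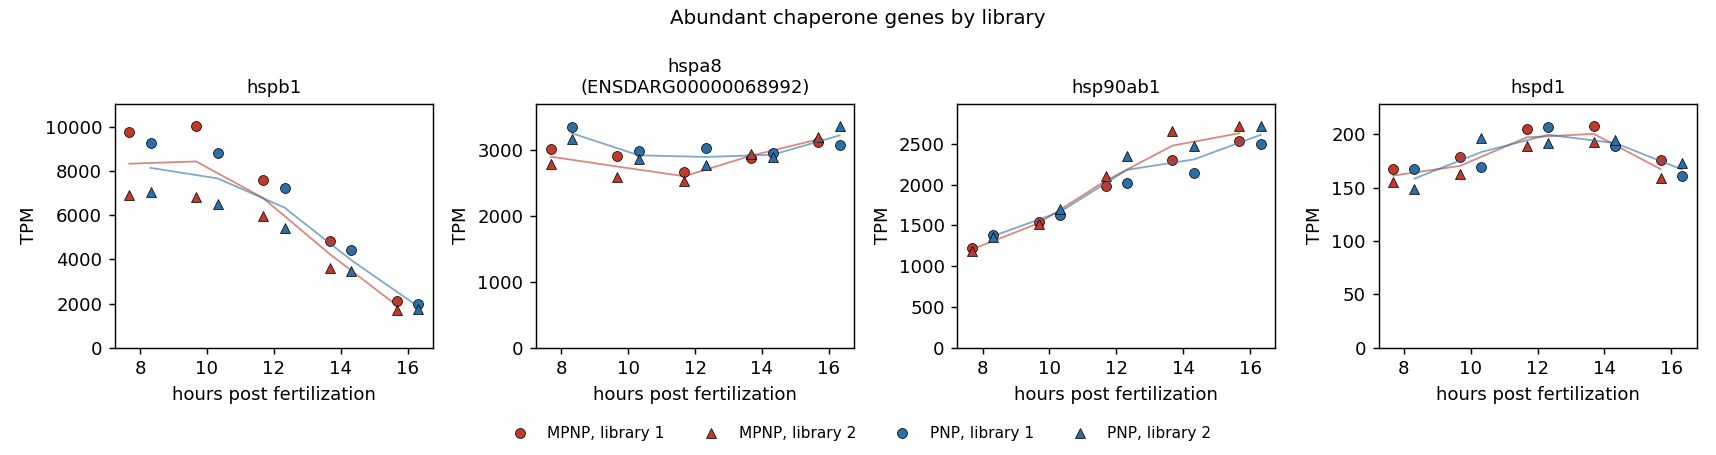
TPM of hspb1, the abundant hspa8, hsp90ab1 and hspd1 in each library against hours post fertilization, on axes that start at 0, with MPNP in red left of PNP in blue, circles for library 1, triangles for library 2, and lines through group means. The pools lie close together, with MPNP slightly lower without overlap for hspa8 at 8 and 12 hpf and for hsp90ab1 at 8 and 10 hpf. Of all genes, 19.7%, 22.8% and 18.4% were lower in MPNP without overlap at 8, 10 and 12 hpf. Over time hspb1 declines and hsp90ab1 climbs, and hspb1 of library 2 lies below that of library 1 in every group.

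Set against all genes, the members stood as follows. They were chosen with earlier results of these data known, and some are close copies that may share reads. The counts therefore only describe these members. At 8 hpf 1 of 11 was called, higher in MPNP, and 2 with the block, where 0.311% of all genes were called in either direction and 0.183% as higher, or 3.92% and 1.83% with the block. Their median log2 difference was 0.67, against -0.03 over all genes. That median is the value of the then low hsp90aa1.1, whose 8 hpf difference was 0.15 without MPNP library 1. At that stage 7 of the 11 had libraries that did not overlap with MPNP higher, which held for 13.6% of all genes, and 2 with MPNP lower, which held for 19.7%. At 10 hpf these counts were 1 and 1 (8.58% and 22.8% of all genes), at 12 hpf 2 and 2 (9.97% and 18.4%), at 14 hpf 5 and 1 (13.5% and 12.6%) and at 16 hpf 1 and 0 (15.6% and 14.4%). At 10, 12, 14 and 16 hpf 0 members passed limma's test, where 0.203%, 0.291%, 0.684% and 1.39% of genes did. With the block 1 did at each, hmox1 (3.01%, 1.38%, 1.78% and 3.49% of genes in either direction), and at an unadjusted p under 0.05 without it the members numbered 2, 1, 1 and 1, beside 1309, 959, 927 and 941 of the 14774 genes. In the mean of the 5 stages 1 member was called, higher, where 5.29% of all genes were called and 2.62% as higher. With the block 4 members were higher (hmox1, hspa5, hsp90aa1 and hsp70.3) and 1 lower (the abundant hspa8), where 17.4% of genes were called, 7.0% higher and 10.4% lower. The means of hsp90aa1 and hsp70.3 include their 8 hpf differences of 2.30 and 3.49. Their differences from 10 to 16 hpf had both signs, and none of these passed with or without the block. For the 8 hpf difference against the later mean, 0 members and 0.0% of genes passed (4 members and 953 genes at an unadjusted p under 0.05), and with the block 2 members and 0.596% of genes.

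**Figure D5:**
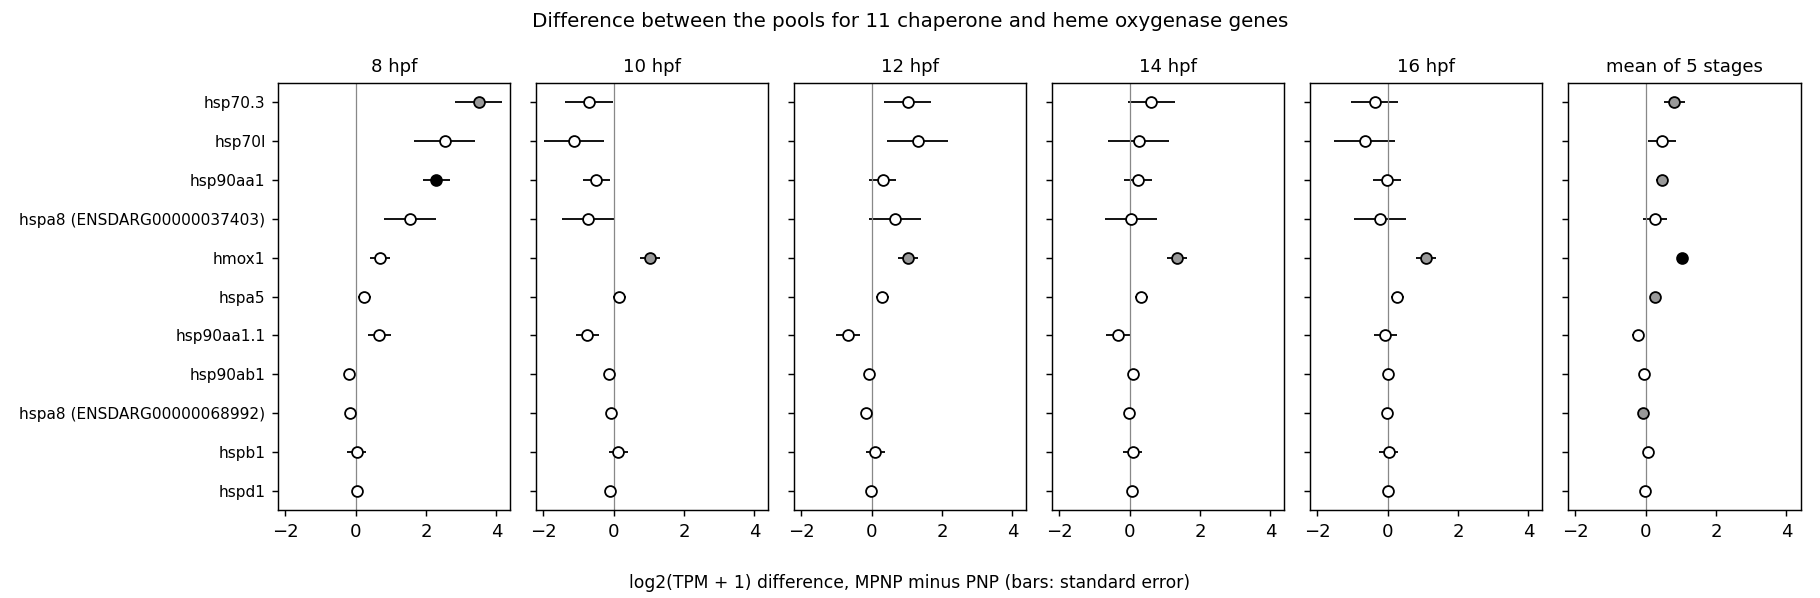
MPNP minus PNP differences in log2(TPM + 1) for the 11 gene IDs at each stage and for the mean of the 5 stages, with bars for the standard error. Black points passed limma's test (adjusted p under 0.05), grey points passed only with the replicate block, and open points passed neither. hsp70.3, hsp90aa1, hsp70l and the rarer hspa8 stand to the right at 8 hpf and scatter around 0 later, while hmox1 lies between 0.69 and 1.35 at each stage.

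Few partners and regulators of these genes were called at 8 hpf, but few of all genes were either. Of all genes, 0.311% were called in either direction there, or 3.92% with the block. In the mean of the stages 5.29% were, or 17.4% with the block. Of 4 tested heat shock factor genes and their regulators 0 passed at 8 hpf or in the mean with limma, and 2 with the block in the mean, both lower in MPNP: hsbp1 (-0.44 ± 0.14; limma adjusted p = 0.1, and 0.035 with the block) and hsbp1b (-0.19 ± 0.08; 0.24 and 0.026), named for the binding of heat shock factor 1 by the mammalian protein. hsf1 itself was at 25.6 and 26.5 TPM in MPNP and at 27.1 and 26.7 TPM in PNP at 8 hpf. The list of 28 other genes of the cytosolic HSP70 system holds J-domain proteins and exchange factors but not hspa2, whose values are given above. It also holds hsp70.1, at 1.62 and 4.6 TPM in MPNP and at 0.13 and 0 TPM in PNP at 8 hpf. That was the largest difference of the list at 8 hpf (1.85). Of these 28 genes, 0 passed at 8 hpf (median difference 0.08) and 2 were higher with the block. These were hspa14 (0.29 ± 0.09; limma adjusted p = 0.24, and 0.026 with the block) and dnaja2 (ENSDARG00000010745; 0.26 ± 0.13; 0.62 and 0.049). Of 20 HSP90 co-chaperones 0 passed, and 1 with the block, sugt1, an adaptor of HSP90 (1.1 ± 0.25; limma adjusted p = 0.11 and 0.0061), at 35.3 and 58.4 TPM in MPNP and at 19.4 and 22.2 TPM in PNP. Of 14 chaperonin and prefoldin genes, 17 IDs of the mitochondrial chaperone list and 2 small heat shock proteins, 0 passed at 8 hpf with or without the block. The mitochondrial list also holds a stress regulator and protease entries, and IDs that share a symbol were counted separately. In the mean of the stages, 3 mitochondrial entries were higher in MPNP, and 4 with the block, a further htra2 entry being the addition. The 3 were atf5a, a regulator of the mitochondrial stress response (0.39 ± 0.10; limma adjusted p = 0.035), and the protease entries htra2 (ENSDARG00000076713, 0.73 ± 0.12; 0.0021) and htra2 (ENSDARG00000069909, 0.70 ± 0.12; 0.004), a symbol shared by several IDs. In that mean the HSP70 system had 0 called genes (2 higher and 2 lower with the block), the co-chaperones 1 lower, which was smyd1 (3 higher and 2 lower with the block), the chaperonin and prefoldin list 0 (1 higher with the block) and the small heat shock proteins 0.

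Around hmox1, a few antioxidant genes were higher in MPNP, but not the list as a whole. Of 24 tested genes of the Nrf2 and oxidative stress list, 2 were called at 8 hpf, both higher (with the block 3 higher, sod2 being added, and 1 lower, gpx1a), and in the mean of the stages 3 higher and 1 lower (5 and 3 with the block). Of all genes, 0.183% were called higher at 8 hpf, or 1.83% with the block. In the mean 2.62% were called higher and 5.29% in either direction, and with the block 7.0% higher and 10.4% lower. The list's median difference in the mean was -0.02, close to the -0.03 of all genes. cat, the peroxide-degrading catalase, was at 16.0 and 16.5 TPM in MPNP and at 7.93 and 7.08 TPM in PNP at 8 hpf, a difference of 1.02 ± 0.14 (limma adjusted p = 0.0089), and in the mean it differed by 0.65 ± 0.06 (3.5e-05). prdx1 (ENSDARG00000058734), a peroxiredoxin, was at 23.0 and 30.0 TPM in MPNP and at 14.1 and 12.8 TPM in PNP at 8 hpf (0.92 ± 0.14; limma adjusted p = 0.014), and at 64.4 and 61.5 TPM in MPNP and at 21.6 and 18.0 TPM in PNP at 16 hpf. sod2, the mitochondrial superoxide dismutase, was higher by 0.40 ± 0.06 in the mean (limma adjusted p = 0.0021), and gpx4a, whose product reduces lipid peroxides, was the 1 called lower (-0.23 ± 0.05; 0.0085). Of 26 heme and iron genes 0 passed in the mean (median 0.01), and with the block 2 were higher, among them the heme transporter slc48a1 (ENSDARG00000026109; 0.23 ± 0.07; limma adjusted p = 0.067, and 0.028 with the block). At 8 hpf 0 of them passed, and 2 with the block, both higher. The heme synthesis gene cpox differed by 0.92 ± 0.25 at 8 hpf (limma adjusted p = 0.18, and 0.014 with the block).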

How the data were processed

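Poly(A)-selected RNA of whole zebrafish embryos was sequenced in 20 libraries (about 500 ng RNA, paired reads of 150 bases, per the labels). The authors deposited TPM values for 32057 gene IDs. The submitters' processing notes name the genome build GRCz11, R 4.3.3, DESeq2 1.42.1, HTSeq 0.12.3, STAR 2.7.3a and RSEM 1.3.3, without saying which made the TPM. A name table matched 28988 IDs, with symbols lower-cased here; 4 unnamed columns without values were not used. No coordinates are given.

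Values were tested as log2(TPM + 1), which understates changes of low genes. For the 14774 genes with a mean of at least 1 TPM, a limma model (version 3.58.1, in R 4.3.3) covered all 20 libraries, with 1 mean per group, an intensity trend and 10 residual degrees of freedom. P-values are 2-sided, adjusted by Benjamini-Hochberg over all genes (threshold 0.05). The contrasts took MPNP minus PNP per stage, their mean, the 8 hpf difference minus the mean of later ones, PNP at 16 minus 8 hpf, and number 2 minus 1. The block fit adds replicate number within stage (5 residual degrees of freedom). Deviations of same-numbered MPNP and PNP libraries correlated at 0.485, 0.586, 0.615, 0.539 and 0.601, so the numbers were taken to pair the samples; this comes from the data, not the labels. No label states separate crosses for the libraries of a group; the p-values reflect the spread between these libraries, which may be technical. The fit was tested on simulated data.

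The genes and lists were chosen with earlier results of these data known. Named were all members, mdm2, up to 4 called genes per list in the mean and at 8 hpf, and the 5 genes most alike by stage-centred Pearson's r; clone-named genes were not named. Other pseudocounts, filters, scalings, sample sets and left-out libraries were tried.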

Additional observations from a re-analysis of the deposited data

Results flagged for a closer look

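hsp70.3 and hsp90aa1 (ENSDARG00000024746) had a larger MPNP minus PNP difference at 8 hpf than in the mean of 10 to 16 hpf when the replicate number was a block, by 3.35 for hsp70.3 and 2.29 for hsp90aa1 on the log2 scale (limma adjusted p = 0.029 and 0.016). Without the block neither passed (0.23 and 0.16).

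hsp90aa1.1 was flagged because its libraries did not overlap in opposite directions at different stages. MPNP was higher at 8 hpf, by 0.67, and lower at 12 and 14 hpf, with differences of -0.68 and -0.33. Such a lack of overlap in the same direction held for 13.6%, 18.4% and 12.6% of all genes at 8, 12 and 14 hpf. The 8 hpf values were low, at 2.71 and 0.79 TPM in MPNP and 0.64 and 0.59 TPM in PNP. Without MPNP library 1 the 8 hpf difference was 0.15. The opposite signs were not tested stage against stage. The 8 hpf difference minus the mean of the later ones was 1.13 ± 0.37, with a limma adjusted p of 0.47, or 0.07 with the block.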

How the results depend on the processing

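The mean hmox1 difference passed under every alternative run. The 8 hpf call of hsp90aa1 was lost after quantile normalization (2.09, limma adjusted p = 0.053) and in a fit to that stage's 4 libraries alone (0.45). hsp70.3 at 8 hpf passed in only 4 of 10 other settings. These were a pseudocount of 0.1 or 5 (limma adjusted p = 0.047 and 0.046), median ratio rescaling (0.0496) and the replicate block (0.0061). In the other settings it did not pass, with limma adjusted p up to 0.31. Members called at 8 hpf numbered 2 with a pseudocount of 0.1 or 5, median ratio rescaling or the replicate block, and 0 with quantile normalization or the stage alone. With the block the count was 1 at 10, 12, 14 and 16 hpf, 5 in the mean and 2 for 8 hpf against later. It was also 1 with pseudocount 5 and quantile normalization at 14 and 16 hpf and median ratios at 14 hpf, 2 in the mean with median ratios, quantiles or number 2 alone, and 5 for number with quantiles.

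All genes called were 46, 30, 43, 101 and 205 from 8 to 16 hpf, 782 in the mean, 0 for 8 hpf against later, 9506 for PNP time and 8052 for number. With the block they were 579, 444, 204, 263 and 516, 2574 and 88; with each stage alone 0, 0, 0, 0 and 61; with a mean of at least 5 TPM 24, 16, 60, 106 and 493 at 8, 10, 14 and 16 hpf and in the mean. Without a filter they were 98 at 8 hpf, 375 at 16 hpf and 29 for 8 hpf against later. Pseudocount 5 gave 86 at 8 hpf and 9 for 8 hpf against later. Median ratios gave 73, 52 and 67 at 8, 10 and 12 hpf and 2 for 8 hpf against later, quantiles 24 and 81 at 8 and 12 hpf, a fit without trend 1 for 8 hpf against later. Libraries numbered 1 and 2 alone, chosen after seeing the data, gave 146 and 282 in the mean.

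Leaving out each library gave 0 to 2 members at 8 hpf, 0 to 0 at 10 and 12 hpf, 0 to 1 at 14 and 16 hpf, 1 to 2 in the mean, 0 to 1 for 8 hpf against later, 6 to 8 for time and 2 to 4 for number. For all genes the ranges were 8 to 48, 5 to 28, 2 to 54, 29 to 105 and 94 to 201 by stage, 549 to 707, 0 to 4, 8269 to 9534 and 7536 to 8100. In these fits the lone library of a group is assumed to vary like the others. The number difference reversed for hsp90ab1 with median ratios (-0.039) and for the abundant hspa8 with quantiles (0.14); rescaling took the median of all genes from 0.10 to about 0 there. hsp70l and the rarer hspa8 drop out at a mean of 5 TPM. The causes were not tested, and TPM does not show what depth limits.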
